A study of Mus musculus with 18 samples.

Results

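Cholangiocytes of mice with polycystic liver disease (PLD) that had received 1 of 2 chromatin-directed compounds were set against wild-type (WT) cholangiocytes, to find which genes of the treated diseased cells lay near the WT level and which lay far from it. The 6 treated libraries, 3 from PLD mice given CPTH6 and 3 from PLD mice given ML324, were chosen by their labels and pooled against the 3 libraries of WT mice at 2 months, which makes 9 of the 18 libraries of the series. WT and untreated PLD mice were sampled at 1 or 2 months after tamoxifen, the drug that switches on the engineered gene change. The titles of the treated libraries carry 3m. The labels name neither the alleles nor the driver of recombination, nor the dose, route or length of treatment, and list no vehicle-treated PLD mice and no 3-month WT mice. All the cells were captured with beads against EpCAM, an epithelial surface protein, from minced bile duct trees. The protocol lists the libraries of the treated mice apart from those of the untreated mice, so genotype, compound, time and library set change together in this comparison and cannot be told apart. The labels do not say whether replicates were separate animals, so p-values measure only the spread between these libraries, which may be technical.

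Cholangiocytes line the bile ducts and modify bile by moving chloride, bicarbonate and water. In polycystic liver disease, genes such as Pkd1, Pkd2, Pkhd1, Prkcsh or Sec63 lose function and ducts widen into fluid-filled cysts, whose growth is commonly linked to cAMP, to growth factors and to the primary cilium. CPTH6 blocks Kat2a and Kat2b, enzymes that place acetyl groups on histones at active chromatin. ML324 blocks the KDM4 enzymes, which take methyl groups off histone H3.

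The 9 libraries held 16345740 to 29161949 counts each. Between 22780 and 29725 genes had a count in 8 of them, while WT replicate 1 had 40039, of which 19502 held 1 to 9 counts. The share of counts on mitochondrial genes was 1.31% to 1.47% in WT, 2.22% to 2.36% with CPTH6 and 1.40% to 1.74% with ML324. The preparations differed in the RNA of other cell types. A list of 22 cholangiocyte markers had a mean log2 CPM (counts scaled to the same library total) of 6.65 to 7.35 in the WT libraries and 9.62 to 10.06 in the treated ones, and all 22 were higher in treated cells. In WT, 18 endothelial markers had a mean of 8.50 to 9.50, above the cholangiocyte markers of the same libraries. The treated libraries had endothelial means of 3.06 to 5.48, and all 18 markers stayed above 0 in each of them. Stellate cell and fibroblast markers ranged from 7.65 to 8.46 in WT and from 3.12 to 5.13 in treated cells, and smooth muscle markers from 7.36 to 7.45 and from 1.79 to 3.85. ML324 replicate 2 was the highest treated library for all 3 of these lists. In bulk RNA, fewer cells of a type and less RNA per cell cannot be told apart, and the part of these other cells in the results below was not tested.

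**Figure D1:**
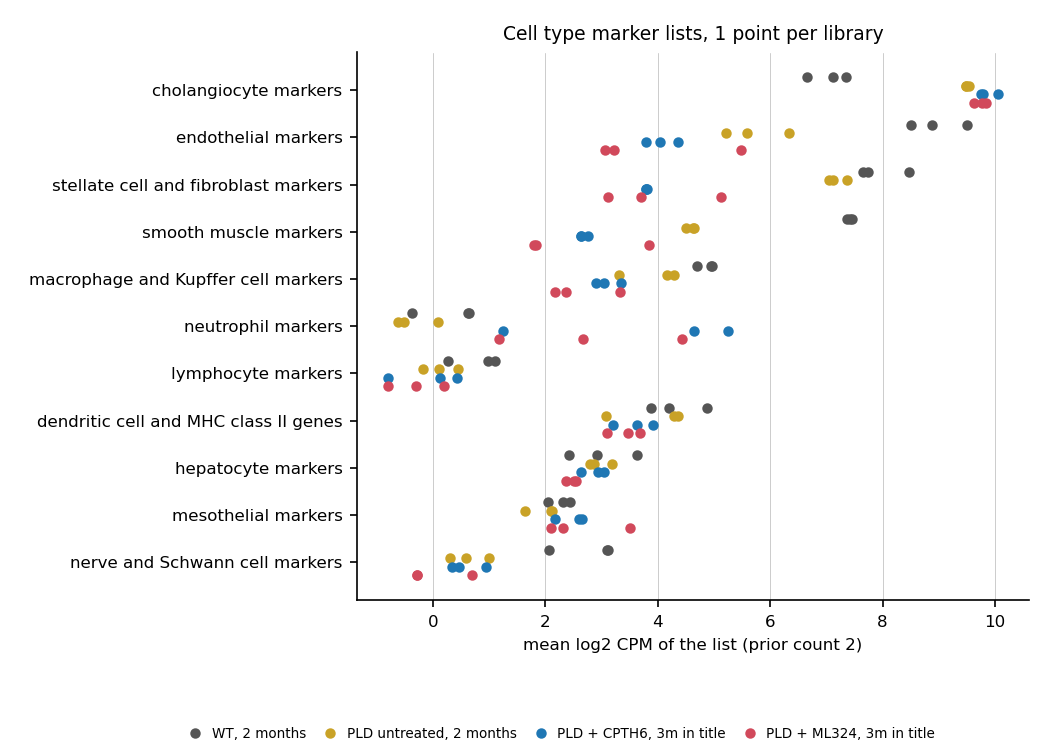
Each point is the mean log2 CPM (x axis, prior count 2) of a cell type marker list (y axis) in 1 library, with WT at 2 months, untreated PLD at 2 months and the CPTH6 and ML324 groups in separate colours. The cholangiocyte markers of the treated libraries lie at 9.62 to 10.06 against 6.65 to 7.35 in WT, while endothelial, stellate and smooth muscle markers lie higher in WT.

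Of 17587 genes tested, 5180 (29.5%) were higher and 5786 (32.9%) were lower in treated PLD cells than in WT, at an adjusted p under 0.05 in edgeR's quasi-likelihood test. All 6 treated libraries lay above all 3 WT libraries for 4654 genes (26.5%) and below them for 5253 (29.9%). Distance from WT was read with a stricter rule in each direction. A gene was called far when its change was tested to exceed 2-fold, which held for 1452 genes above (8.26%) and 2962 below (16.8%). It was called near when the 95% interval of its fold change lay inside 2-fold, which held for 7288 genes (41.4%). Near does not mean equal, since 3132 of the near genes also passed the test for a difference. A further 2465 genes (14%) were neither called different nor near. Few genes of low depth could be called near, since 3.24% of genes under 1 CPM were near, with a median standard error of 0.526, against 62.3% of those at 10 to 100 CPM, with a median of 0.123. Over 100 CPM the share was 51.4% at the same median standard error, where 54.9% of genes were higher and 21.6% lower. The median log2 fold change over all genes tested was -0.03.

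The treated and WT libraries differed by more than libraries of the same group. The root mean square difference of log2 CPM over the tested genes was 1.47 to 1.86 between a treated and a WT library. Between 2 WT libraries it was 0.625 to 0.708, and between libraries of the same treated group it was 0.557 to 0.775. A CPTH6 library and an ML324 library differed by 0.598 to 0.785, a range that overlapped the ranges within each group. Untreated PLD libraries at 2 months lay 1.18 to 1.36 from WT and 0.883 to 1.12 from the treated libraries.

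**Figure D2:**
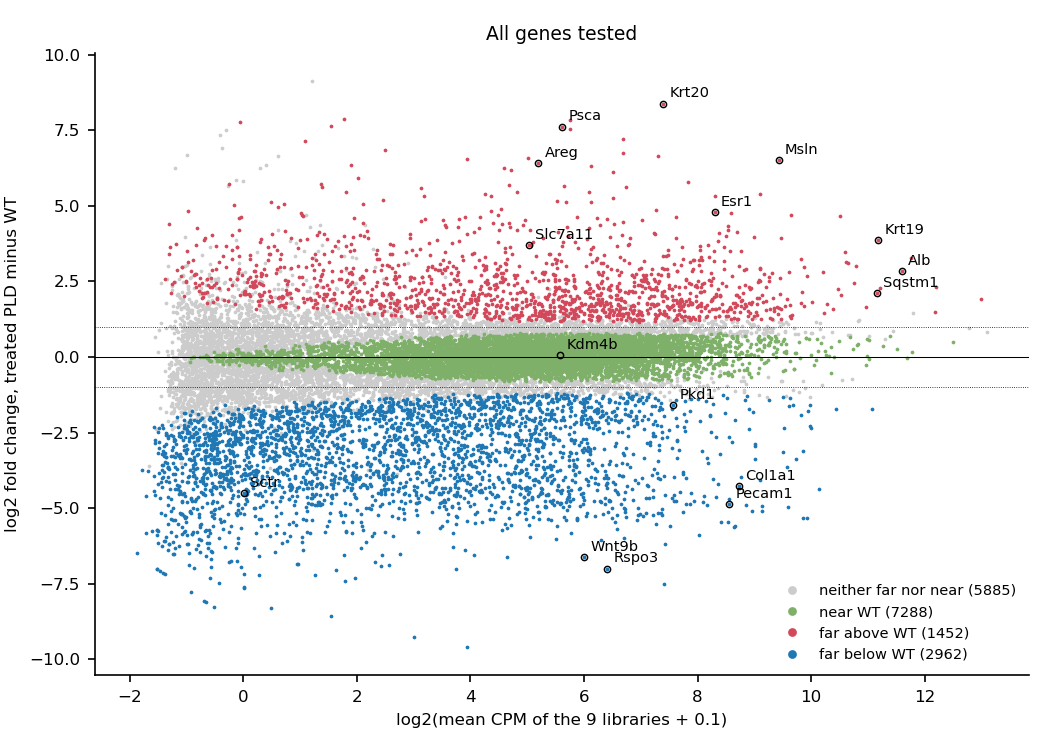
Each point is 1 of the 17587 genes tested, with log2 of its mean CPM over the 9 libraries plus 0.1 on the x axis and the log2 fold change of treated PLD minus WT on the y axis. Dotted lines mark 2-fold. The 1452 genes far above WT, the 2962 far below and the 7288 near are coloured, and few genes under 1 CPM are near.

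Epithelial and secretory genes led the genes farthest above WT. Krt20, a keratin of intestinal and urothelial lining, stood at 1.27, 0.266 and 0.619 CPM in the WT libraries and 119.5 to 564 (median 199) CPM in the treated libraries, a log2 fold change of 8.39 ± 0.69 (SE, adjusted p = 3.98e-06). Psca, a small surface protein of gastric and prostate epithelium, was measured at 0.802, 0.0885 and 0.155 CPM in the WT libraries and 56.2 to 109 (median 68.1) CPM in the treated libraries, higher by 7.63 ± 0.48 (adjusted p = 9.38e-07). Neither gene exceeded 1.27 CPM in a WT library, and their treated and WT libraries did not overlap. Msln, which encodes the surface protein mesothelin, was well expressed in treated cells at 745 to 1314 (median 1005) CPM against 9.12, 15.3 and 9.03 CPM in WT, a change of 6.51 ± 0.29 (adjusted p = 2.71e-07). Anxa8, an annexin that binds membranes in a calcium-dependent way, had 2.07, 2.43 and 2.37 CPM in the WT libraries and 171 to 342 (median 209.6) CPM in the treated libraries, a change of 6.67 ± 0.28 (adjusted p = 2.59e-07). Areg, the EGF receptor ligand amphiregulin, had 0.887, 0.531 and 0.413 CPM in the WT libraries and 35.6 to 77.2 (median 53.8) CPM in the treated libraries, a change of 6.41 ± 0.31 (adjusted p = 3.67e-07). Untreated PLD cells at 2 months also held these genes above WT, with means of 159.6 CPM for Krt20, 83.1 for Psca, 1111 for Msln, 192 for Anxa8 and 35.9 for Areg. The 12 genes named for the largest increase, each at 10 CPM or more in treated cells and without overlap with WT, also held Tff3, a trefoil peptide of mucous surfaces (6.33 ± 0.71), Prss22, a serine protease (6.58 ± 0.48), Akr1b7, an aldo-keto reductase (6.74 ± 0.29), and Gsta1, a glutathione transferase (6.55 ± 0.64). Prss22 was also higher in treated than in untreated PLD cells, by 2.14 ± 0.36. Ngp and Chil3, which the 12 also held, are genes of myeloid cells, and Ngp varied widely among the treated libraries. Chil3 ranged from 62.6 to 299.5 CPM in the treated libraries against 0.338, 0.487 and 2.17 CPM in WT. Its mean in untreated PLD cells was 38.8 CPM. Ngp ranged from 1.94 to 200 CPM and lost its call against WT at 1 month (2.82, edgeR adjusted p = 0.105), and neutrophil markers varied in the same libraries, as given below.

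Vessel and stellate cell genes led the genes farthest below WT. Rspo3, a secreted R-spondin that amplifies Wnt signals and is made by liver endothelium, was at 208, 312 and 233 CPM in the WT libraries and 0.243 to 5.10 (median 1.70) CPM in the treated libraries, a log2 fold change of -7.01 ± 0.53 (adjusted p = 2.41e-06). Wnt9b, a Wnt ligand that liver endothelium also makes, was at 163, 243 and 157 CPM in the WT libraries and 0.546 to 5.70 (median 1.31) CPM in the treated libraries, a change of -6.63 ± 0.49 (adjusted p = 2.13e-06). Both were far below every WT library in all 6 treated libraries, and ML324 replicate 2, the treated library with the most endothelial marker RNA, had the highest treated value of each. Adamts13, the protease that trims von Willebrand factor and comes from stellate cells, was at 26.0, 52.9 and 39.4 CPM in the WT libraries and 0.0607 to 0.720 (median 0.281) CPM in the treated libraries, lower by a log2 change of -7.03 ± 0.38. Chrdl1, a secreted BMP antagonist, was at 70.2, 77.0 and 72.0 CPM in the WT libraries and 0.286 to 1.56 (median 0.611) CPM in the treated libraries, a change of -6.62 ± 0.27. Others of the 12 were Tmem215 (-7.31), the GABA receptor subunit Gabrq (-6.93), the alcohol dehydrogenase Adh6b (-6.89), the ligand Bmp10 (-6.80), the adrenergic receptor Adra2b (-6.57), Ccbe1, which acts in lymphatic vessel growth (-6.57) and Plppr5 (-6.52). The highest treated value among these others was 1.14 CPM (Ccbe1) and the lowest WT value was 4.05 CPM (Bmp10).

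The near genes measured most precisely, by the narrowest interval at 50 CPM or more, included the following. Fip1l1 and Cpsf1, which act in cleavage and polyadenylation of mRNA, had log2 fold changes of 0.13 ± 0.07 and 0.09 ± 0.07. Rptor, a subunit of the growth regulator mTORC1, was at 57.6, 58.5 and 57.2 CPM in the WT libraries and 49.9 to 54.6 (median 50.8) CPM in the treated libraries, a change of -0.17 ± 0.07 with an interval of -0.33 to -0.01. Ube3a, a ubiquitin ligase, changed by -0.06 ± 0.07, Usp8, a deubiquitinase, by 0.08 ± 0.08, and Tsen34, a subunit of the tRNA splicing endonuclease, by 0.10 ± 0.08, and none of these 3 passed the test. Emg1, which acts in ribosome assembly, was higher by 0.27 ± 0.07 (adjusted p = 0.00848), and Plscr3, a phospholipid scramblase, was lower by -0.65 ± 0.07 (adjusted p = 2.47e-05), with all 6 treated libraries below the 3 WT ones. Both stayed inside 2-fold, so near genes with small spread can still differ.

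**Figure D3:**
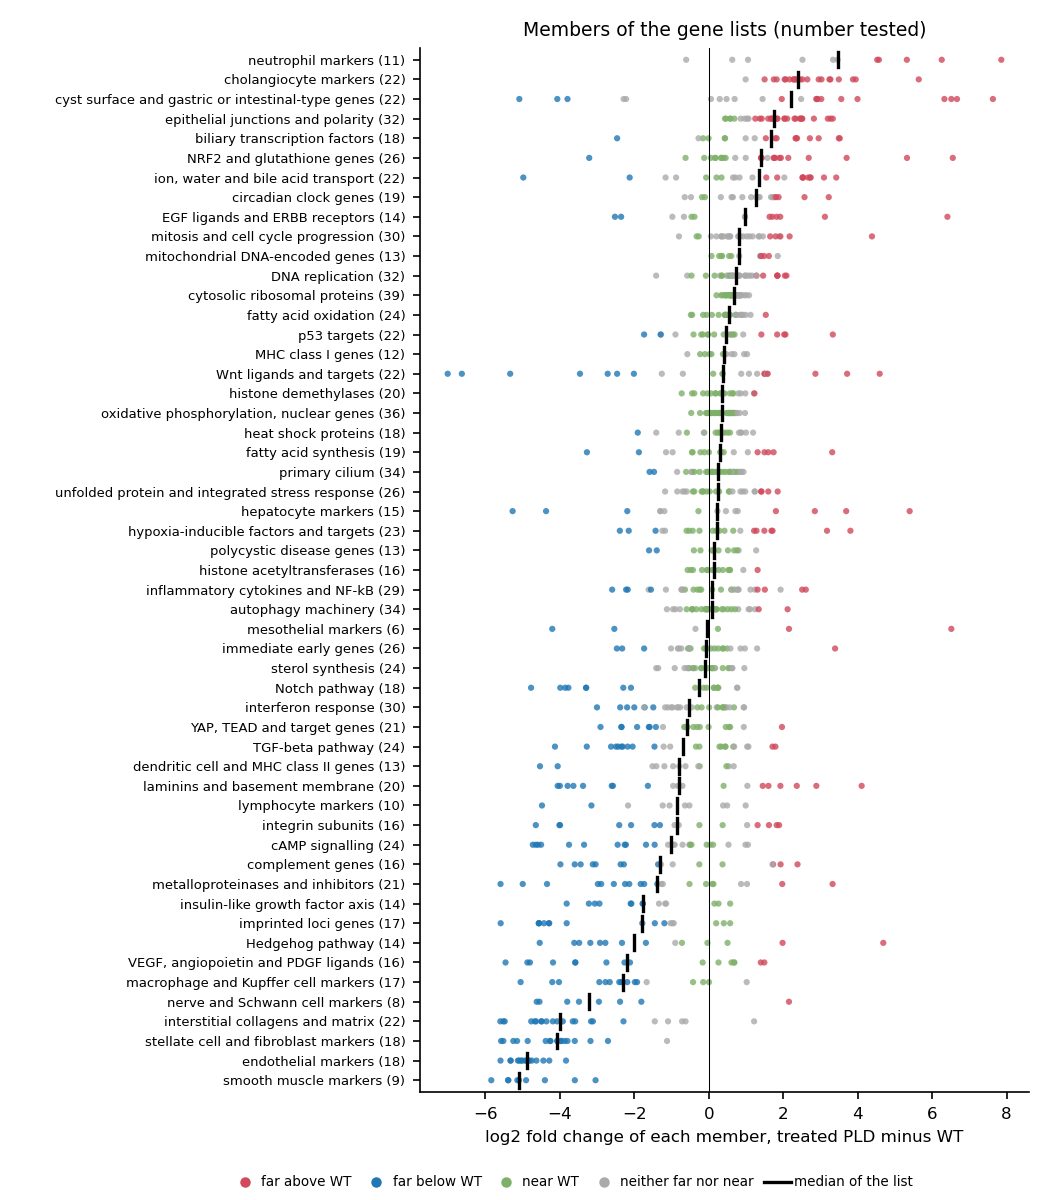
Each point is the log2 fold change (x axis, treated PLD minus WT) of 1 tested member of a gene list (y axis, number tested in brackets), coloured as far above, far below or near WT or neither, and black bars are list medians. Cholangiocyte markers, junction genes and NRF2 genes lie to the right, endothelial, stellate, smooth muscle and interstitial matrix genes lie to the left, and acetyltransferases, cilium, autophagy and oxidative phosphorylation genes lie close to 0.

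The list counts below are descriptions. Over all genes tested, 29.5% were higher, 32.9% were lower and 41.4% were near, and a list close to these shares does not stand out. Genes of epithelial identity were mostly higher in treated cells. Of the 22 cholangiocyte markers, 21 were far above WT, with a median log2 fold change of 2.40. Epcam, the protein used for capture, stood at 138, 108 and 159 CPM in the WT libraries and 727 to 973 (median 834) CPM in the treated libraries, higher by 2.65 ± 0.16 (adjusted p = 8.85e-07). Krt19, the keratin stained to judge purity, was at 290.0, 184 and 211 CPM in the WT libraries and 2755 to 3897 (median 3291) CPM in the treated libraries, higher by 3.87 ± 0.22 (adjusted p = 5.96e-07). Both were higher in each treated library than in any WT library. Krt7, another keratin of duct cells, changed by 3.95 ± 0.27. Among 18 biliary transcription factors, 13 were higher and 1 was lower, with a median of 1.66. Klf5 rose by 3.52 ± 0.17, Elf3 by 3.49 ± 0.25 and Sox9, which marks ducts and progenitors, by 2.95 ± 0.40. Hhex (0.43 ± 0.14) and Tead1 (-0.00 ± 0.15) were near WT. Of 32 genes of cell junctions and polarity, 31 were higher and 0 lower, with a median of 1.75. The desmosome genes Pkp3 (3.20 ± 0.14) and Dsp (2.82 ± 0.20) were far above WT, while the polarity genes Scrib (0.46 ± 0.10) and Prkci (0.69 ± 0.11) were higher but near.

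Ion and bile acid transport followed the epithelial pattern less evenly. Of 25 such genes 22 passed the low-count filter, of which 14 were higher, 3 were lower and 3 were near, with a median of 1.36. Ano1, a calcium-activated chloride channel, was at 129, 115 and 115 CPM in the WT libraries and 679 to 1017 (median 746) CPM in the treated libraries, higher by 2.74 ± 0.14 (adjusted p = 4.64e-07). Slc10a2, the bile acid uptake carrier, rose by 3.42 ± 0.19, the potassium channel Kcnq1 by 2.52 ± 0.16 and the sodium pump subunit Atp1b1 by 2.67 ± 0.17. The bicarbonate exchanger Slc4a2 (0.21 ± 0.10) was near WT. Genes of cAMP signalling were mostly lower, with 16 of the 24 tested (26 listed) lower, 2 higher and a median of -1.02. Adcy5, an adenylyl cyclase, fell from 102, 116 and 124 CPM to 2.35 to 7.20 (median 4.97) CPM, a change of -4.58 ± 0.27 (adjusted p = 7.02e-07). Pde3a, a phosphodiesterase, changed by -4.64 ± 0.31 and Rapgef3, a cAMP-sensing exchange factor, by -3.35 ± 0.23, whereas the kinase subunits Prkar2a (0.04 ± 0.09) and Prkar1a (-0.46 ± 0.10) were near WT. Sctr, the secretin receptor of duct cells, was singled out after its values were seen because it moved against the other duct genes. It was low in WT, at 3.29, 1.28 and 2.84 CPM, and at 0 to 0.425 CPM in the treated libraries, a fitted change of -4.50 ± 0.69.

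Genes of cyst surfaces and of gastric or intestinal epithelium were split. Of 27 listed and 22 tested, 13 were higher, 5 were lower and 0 were near, with a median of 2.22. Besides Psca, Msln, Anxa8 and Tff3, Lgals4, an intestinal galectin, rose by 3.56 ± 0.20. Lower members of the list included 2 mucous gland genes, chosen after their values were seen. Muc6, a gel-forming mucin, was at 151, 95.1 and 28.9 CPM in WT and 3.10 to 9.71 (median 5.06) CPM in treated cells, a change of -4.07 ± 0.47, and Agr2, which folds mucins, changed by -5.08 ± 0.66. Among EGF ligands and ERBB receptors, 8 of 14 tested (15 listed) were higher and 5 lower. Next to Areg, the ligands Tgfa (1.92 ± 0.15) and Btc (1.64 ± 0.15) rose and the neuregulin Nrg1 fell by 2.35 ± 0.18 on the log2 scale. Against WT at 1 month Btc lost its call at 0.65 (edgeR adjusted p = 0.181). Esr1, the oestrogen receptor alpha, was at 13.5, 21.9 and 14.2 CPM in the WT libraries and 246 to 658 (median 483) CPM in the treated libraries, higher by 4.79 ± 0.32 (adjusted p = 1.3e-06). Genes made by hepatocytes were mixed, with 4 of 15 tested (19 listed) higher and 6 lower. Far above WT were 4 and far below were 3, down to -5.265. The mean log2 CPM of the list overlapped, at 2.36 to 3.04 in treated and 2.42 to 3.63 in WT libraries. The called members named here are all higher ones. Alb, serum albumin, was at 516, 493 and 769 CPM in the WT libraries and 2916 to 5486 (median 4413) CPM in the treated libraries, higher by 2.85 ± 0.21 (adjusted p = 1.97e-06). The liver regulator Hnf4a rose by 3.69 ± 0.18 and Apob, the lipoprotein scaffold, by 5.40 ± 0.32. Cyp2e1, a hepatocyte enzyme, was near WT at 24.0 to 47.8 (median 38.3) CPM against 29.2, 50.0 and 54.5 CPM, a change of -0.28 ± 0.23, although untreated PLD libraries averaged 459 CPM.

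Most disease genes lay near WT, as did most genes of 10 CPM or more. Of 13 genes mutated in polycystic liver or kidney disease, 9 (69.2%) were near. The near share was 41.4% over all genes tested, 62.3% at 10 to 100 CPM and 51.4% over 100 CPM. Of the 13, 5 (38.5%, against 29.5% of all genes tested) were higher and 3 (23.1%, against 32.9%) were lower. Pkd1, the polycystin-1 gene, was an exception. It was at 311, 377 and 340.5 CPM in the WT libraries and 97.7 to 135 (median 111) CPM in the treated libraries, a log2 fold change of -1.60 ± 0.10 (adjusted p = 8.21e-07), far below WT and also below untreated PLD cells, which averaged 192 CPM, by -0.76 ± 0.09 (adjusted p = 0.000125). Lrp5, a Wnt co-receptor, was the other member far below WT, at -1.40 ± 0.13. Pkd2, the partner channel, was at 217, 240.5 and 253 CPM in the WT libraries and 324 to 489 (median 439) CPM in the treated libraries, higher by 0.81 ± 0.12 (adjusted p = 0.000214), and Pkhd1, the fibrocystin gene, by 1.27 ± 0.20 (adjusted p = 0.000263), neither of them far. Set against WT at 1 month, the change of Pkhd1 was 0.40 (edgeR adjusted p = 0.527). Prkcsh, a glucosidase subunit of the endoplasmic reticulum, was higher by 0.68 ± 0.12 and Sec63, which acts in protein import there, was lower by -0.40 ± 0.12, both inside 2-fold. Without WT replicate 2 the change of Sec63 was -0.26 (edgeR adjusted p = 0.0824), and against WT at 1 month it was -0.20 (edgeR adjusted p = 0.197). Ganab, the partner of Prkcsh, was near at 0.10 ± 0.11. The counts do not show whether a transcript carries the engineered change, so they do not check the genotype. Of 34 primary cilium genes, 25 (73.5%) were near, with a median of 0.25. Ift52 (0.09 ± 0.08) and Ift81 (-0.02 ± 0.09), subunits of intraflagellar transport, barely moved, Cep290, a transition zone gene, rose by 0.88 ± 0.09, and Tulp3, which brings receptors into the cilium, was far below WT at -1.59 ± 0.11.

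On the CPM scale, the tested transcripts of the enzymes that the compounds are known to inhibit were near WT. Kat2a was at 46.0, 47.6 and 40.6 CPM in the WT libraries and 26.3 to 34.9 (median 30.7) CPM in the treated libraries, a change of -0.57 ± 0.11 (adjusted p = 0.00142). Kat2b was at 74.5, 82.2 and 95.9 CPM in the WT libraries and 81.4 to 123 (median 102) CPM in the treated libraries, a change of 0.27 ± 0.12 (adjusted p = 0.0694). Kat2a was lower and Kat2b was not called, and both intervals stayed inside 2-fold. Against WT at 1 month Kat2a changed by -0.29 and lost its call (edgeR adjusted p = 0.0803), and Kat2b was called without WT replicate 3 (0.34, edgeR adjusted p = 0.0386) or ML324 replicate 3 (0.32, edgeR adjusted p = 0.0382). Kdm4a (-0.15 ± 0.11), Kdm4b (0.06 ± 0.10) and Kdm4c (-0.39 ± 0.09) were near as well, of which Kdm4c was lower (adjusted p = 0.00407), and Kdm4d did not pass the low-count filter. When libraries were scaled to the cholangiocyte markers, Kat2a (-3.28), Kat2b (-2.42), Kdm4a (-2.85), Kdm4b (-2.64) and Kdm4c (-3.09) were all called lower. The median of all genes on that scale was -2.72. Across 16 histone acetyltransferases 14 were near, 6 higher and 3 lower, with a median of 0.13. Hat1, which acetylates newly made histones, was far above WT (1.31 ± 0.14), and Kat5 was higher by 0.93 ± 0.12. Across the 20 of 21 listed demethylases that were tested, 15 were near, 12 higher and 3 lower, with a median of 0.36. Kdm7a (1.23 ± 0.12) and Jmjd1c (1.21 ± 0.15) rose. Transcript levels say nothing about enzyme activity.

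Stromal, vascular and matrix genes had the lowest medians of all the lists. All 18 endothelial markers, all 18 stellate cell and fibroblast markers and all 9 smooth muscle markers were lower, with medians of -4.88, -4.06 and -5.09. Pecam1, an adhesion protein of endothelium, was at 974, 1359 and 843 CPM in the WT libraries and 17.7 to 79.2 (median 27.9) CPM in the treated libraries, a change of -4.87 ± 0.45 (adjusted p = 8.92e-06). Col1a1, the main chain of fibrillar collagen, was at 1029, 1874 and 559 CPM in the WT libraries and 44.8 to 106 (median 52.3) CPM in the treated libraries, a change of -4.26 ± 0.37 (adjusted p = 5.11e-06). The scavenger receptor Stab1 changed by -4.93 ± 0.37, the PDGF receptor Pdgfrb by -5.25 ± 0.35, and the muscle gene Lmod1 by -5.39 ± 0.36. These genes did not overlap between treated and WT libraries. Of 22 interstitial matrix genes 20 were lower and 1 higher, with a median of -4.00. Basement membrane genes were split by chain. Of 20, 8 were higher and 12 lower. Lamb3 (4.11 ± 0.16) and Lama3 (2.36 ± 0.15), chains of the epithelial laminin, were far above WT, and the collagens Col4a1 (-3.63 ± 0.25) and Col4a2 (-3.37 ± 0.21) were far below. Integrin subunits were split likewise, with Itga6, which binds that laminin, at 1.62 ± 0.15 and Itga1, which binds collagen, at -2.40 ± 0.17. Nerve and Schwann cell markers were lower for 7 of 8. Of 6 mesothelial markers tested (7 listed) 2 were higher, Msln among them, and 2 were lower, Wt1 (-4.20 ± 0.48) and Gpm6a (-2.53 ± 0.24).

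Immune genes differed by cell type. Of 17 macrophage and Kupffer cell markers 12 were lower, 1 was higher and 3 were near. Adgre1, the F4/80 antigen, was at 119.8, 50.0 and 57.9 CPM in the WT libraries and 6.86 to 14.4 (median 13.1) CPM in the treated libraries, a change of -2.66 ± 0.27 (adjusted p = 1.58e-05). Cd163, a scavenger receptor, changed by -5.05 ± 0.40 and the fractalkine receptor Cx3cr1 by -4.20 ± 0.25, while Lyz2 (0.01 ± 0.22) and Cd68 (-0.42 ± 0.19) were near WT. Among 13 dendritic cell and MHC class II genes, 7 were lower and 1 higher. Of 11 neutrophil markers 6 were higher, 0 lower and 5 not called, and their mean log2 CPM in single treated libraries ran from 1.17 to 5.24 against -0.38 to 0.64 in WT. S100a9, a calcium-binding protein of neutrophils, was at 3.12, 14.7 and 6.61 CPM in the WT libraries and 40.0 to 386 (median 162) CPM in the treated libraries, higher by 4.52 ± 0.93 (adjusted p = 0.00174). CPTH6 replicate 1 had the lowest S100a9 value of the treated libraries and CPTH6 replicate 3 the highest. Lymphocyte markers had means of 0.26 to 1.10 in WT and -0.81 to 0.42 in treated cells, and 4 of the 10 tested (16 listed) were lower. Interferon response genes were lower for 12 of 30 (40%, against 32.9% of all genes tested) and higher for 3 (10%, against 29.5%). Ifitm3, which blocks viral entry, changed by -3.00 ± 0.25, and Ifit2, an interferon-induced RNA-binding protein, fell from 41.3, 70.7 and 45.2 CPM to 8.66 to 14.7 (median 13.8) CPM, while the interferon signal transducer Irf9 was near at 0.68 ± 0.13. Of these 30 genes, 22 were lower in treated than in untreated PLD cells, against 15.2% of all genes tested with untreated PLD. Their mean log2 CPM varied from 5.43 to 7.58 among the untreated PLD libraries and from 4.64 to 5.55 among the treated ones. Of 12 MHC class I genes 6 were higher, 0 lower and 6 near. Complement genes were lower for 10 of 16, whereas C3, the central component, stayed near WT at 1538 to 2193 (median 1875) CPM against 2189, 2286 and 2182 CPM, a change of -0.25 ± 0.10 (adjusted p = 0.0564). Other settings called it lower, among them DESeq2 (adjusted p = 0.0153), limma-voom (adjusted p = 0.0498) and WT at 1 month as control (-0.42, edgeR adjusted p = 0.0454). Of 29 cytokine and NF-kB genes 14 were higher and 10 lower. The chemokine Cxcl16 rose by 1.31 ± 0.11 and Ccl2, which draws monocytes, fell by 2.59 ± 0.24 on the log2 scale.

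Signalling families moved in parts. Among 22 tested Wnt ligands, modulators and targets (24 listed), 9 (40.9%) were higher and 8 (36.4%) lower, against 29.5% and 32.9% of all genes tested. The epithelial ligands Wnt7a (5.45, 2.74 and 5.52 CPM in the WT libraries and 94.0 to 138 (median 106) CPM in the treated libraries, a change of 4.59 ± 0.25) and Wnt7b (3.72 ± 0.29) rose while Rspo3 and Wnt9b were among the farthest below. Wnt4 was near WT at 0.12 ± 0.13. Of 18 Notch genes 8 were lower, all 8 of them far below, 8 were near and 2 were higher. Notch3, a receptor of vascular smooth muscle, was at 579.8, 705 and 768 CPM in the WT libraries and 13.6 to 34.5 (median 25.7) CPM in the treated libraries, a change of -4.77 ± 0.26 (adjusted p = 5.59e-07), and the receptor Notch1 changed by -2.29 ± 0.16, while the nuclear effector Rbpj (-0.14 ± 0.09) and the ligand Dll1 (-0.05 ± 0.11) were near. Hedgehog genes were lower for 10 of 14, such as the transcription factor Gli3 (-3.18 ± 0.31), and the signal transducer Smo was near at -0.03 ± 0.12. TGF-beta genes were lower for 13 of 24 and higher for 8. The inhibitory Smad6 changed by -2.18 ± 0.13, and Smad4, the shared mediator, was near at 0.29 ± 0.11. Of 21 YAP and TEAD genes and targets 14 were lower and 11 near. The matricellular target Ccn1 fell from 1456, 1268 and 2039 CPM to 255 to 389.8 (median 318) CPM, a change of -2.34 ± 0.17 (adjusted p = 1.96e-06), and Ccn2 changed by -1.92 ± 0.13. The insulin-like growth factor axis was lower for 11 of 14 tested (15 listed), with Igf1 at -2.10 ± 0.23 and its receptor Igf1r near at 0.26 ± 0.16. Ligands of the VEGF, angiopoietin and PDGF families and their receptors were lower for 9 of 16. Metalloproteinases and their inhibitors were lower for 14 of 21 and higher for 3.

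Proliferation genes that passed the test were mostly higher. Of 30 mitosis genes 12 (40%, against 29.5% of all genes tested) were higher and 1 lower, with a median of 0.82, and 14 were neither called nor near. Mki67, a marker of cycling cells, was at 5.70, 12.1 and 4.44 CPM in the WT libraries and 12.9 to 32.0 (median 15.5) CPM in the treated libraries, higher by 1.34 ± 0.32 (adjusted p = 0.0045). Set against WT at 1 month in place of 2 months, the change of Mki67 was -0.12 and the median of the mitosis list was -0.12. Of 32 DNA replication genes 22 were higher and 2 lower, with Pcna, the polymerase clamp, up by 1.10 ± 0.12 and Rfc5, a clamp loader subunit, by 2.09 ± 0.20. Cdkn1a, the p21 inhibitor of the cell cycle, was at 139, 173 and 224 CPM in the WT libraries and 574 to 891 (median 742) CPM in the treated libraries, higher by 2.06 ± 0.18 (adjusted p = 6.57e-06), and also higher than in untreated PLD cells by 1.28 ± 0.17 (adjusted p = 0.000301). The p53 target list as a whole was mixed, with 10 of 22 higher, 5 lower and 10 near. Bax, which promotes cell death, was lower but near at -0.41 ± 0.09. Among 26 immediate early genes 13 were near. Fosl1, an AP-1 factor, was far above WT (3.39 ± 0.29) and above untreated PLD cells (2.22 ± 0.25), and the flow-sensing factor Klf2 was far below (-2.32 ± 0.22).

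Antioxidant genes under the control of NRF2 (gene Nfe2l2) were mostly higher in treated cells. Of 28 listed and 26 tested, 20 (76.9%) were higher, 13 of them far, and 2 were lower, with a median log2 fold change of 1.41. Slc7a11, the cystine importer for glutathione synthesis, was at 3.25, 4.29 and 3.10 CPM in the WT libraries and 32.5 to 67.8 (median 45.6) CPM in the treated libraries, higher by 3.70 ± 0.25 (adjusted p = 1.3e-06). Srxn1, which repairs peroxiredoxins, was at 31.8, 37.5 and 34.7 CPM in the WT libraries and 106 to 166 (median 135) CPM in the treated libraries, higher by 1.94 ± 0.13 (adjusted p = 1.17e-06). Untreated PLD cells had means of 3.44 CPM for Slc7a11 and 29.5 CPM for Srxn1, and the treated cells exceeded them by 3.75 ± 0.32 and 2.17 ± 0.14. Gclc, the rate-limiting enzyme of glutathione synthesis, rose by 2.69 ± 0.19 and Gsta4, a glutathione transferase, by 5.32 ± 0.36. Nfe2l2 itself was near WT at 0.46 ± 0.09. Nqo1, a quinone reductase singled out after its values were seen as the list's largest decrease, was at 17.6, 21.5 and 34.3 CPM in the WT libraries and 1.26 to 4.98 (median 2.54) CPM in the treated libraries, a change of -3.21 ± 0.36, and untreated PLD cells had a mean of 3.19 CPM. NRF2 is known to bind the antioxidant response element. Its core letters TGACNNNGC were searched on both strands of the 250 bases before each RefSeq start (GRCm38.p6). They were found for 6 of the 24 list genes with a promoter entry (25%), against 11.5% of 27025 genes at large. The matches are shown because 20 of the 26 tested list members were higher, among them all 6 genes with a match. They are printed with 15 flanking bases where the window allows, 5′ to 3′ on the gene's strand. The matching letters are in capitals and read as the reverse complement for Gclm, Txnrd1 and G6pdx.
Abcc2: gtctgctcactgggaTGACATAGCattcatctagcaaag
G6pdx: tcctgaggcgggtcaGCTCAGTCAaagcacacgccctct
Gclm: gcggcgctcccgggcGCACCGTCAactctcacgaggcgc
Gsta3: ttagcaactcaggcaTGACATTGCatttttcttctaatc
Nfe2l2: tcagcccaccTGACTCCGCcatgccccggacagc
Txnrd1: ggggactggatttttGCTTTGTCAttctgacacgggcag
These stretches lie at chr19:43782195-43782233 (plus strand, Abcc2), chrX:74428914-74428952 (minus strand, G6pdx), chr3:122245408-122245446 (plus strand, Gclm), chr1:21240449-21240487 (plus strand, Gsta3), chr2:75704880-75704913 (minus strand, Nfe2l2), chr10:82859099-82859137 (plus strand, Txnrd1), all upstream of the transcription start.
Gclm, the glutathione synthesis partner of Gclc, changed by 1.43 ± 0.15, Txnrd1, a thioredoxin reductase, by 1.76 ± 0.17, Gsta3 by 2.14 ± 0.30 and the exporter Abcc2 by 1.58 ± 0.36, all higher, although against WT at 1 month Abcc2 changed by -0.09 and Gsta3 lost its call at 1.39 (edgeR adjusted p = 0.0612). G6pdx, which supplies NADPH, was higher but near at 0.34 ± 0.12 (adjusted p = 0.0299), as was Nfe2l2 (adjusted p = 0.00127). The match is a description of letters. Since 20 of the 26 tested members were higher, the direction of the 6 genes does not set them apart, and action of NRF2 was not tested.

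Other stress programmes were mixed around WT. Of 26 genes of the unfolded protein and integrated stress responses, 11 were higher, 6 lower and 11 near. The sensor kinase Eif2ak3 was at 107, 102 and 120.3 CPM in the WT libraries and 346 to 458 (median 387) CPM in the treated libraries, higher by 1.85 ± 0.11 (adjusted p = 7.34e-07), the factor Atf4 rose by 1.42 ± 0.18, and the sensor Atf6 was near at 0.20 ± 0.10. Of 34 autophagy genes 24 (70.6%) were near, against 41.4% of all genes tested and 62.3% of those at 10 to 100 CPM. The cargo adaptor Sqstm1, which is also an NRF2 target, was at 607, 639.6 and 841 CPM in the WT libraries and 2419 to 3801 (median 3087) CPM in the treated libraries, higher by 2.12 ± 0.14 (adjusted p = 1.23e-06), and was higher than in untreated PLD cells by 1.19 ± 0.14. Of 23 hypoxia genes 9 (39.1%) were higher and 8 (34.8%) lower, against 29.5% and 32.9% of all genes tested. The oxygen sensor Egln3 rose by 3.18 ± 0.12 and the carbonic anhydrase Car9 by 3.80 ± 0.30, while Epas1, the HIF-2 alpha gene that endothelium expresses, fell by 2.39 ± 0.15 on the log2 scale and Hif1a was near at 0.29 ± 0.09. Of 18 heat shock genes 9 were near, 9 higher and 4 lower.

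Housekeeping and metabolic groups varied in their distance from WT, beside a near share of 41.4% over all genes tested. Of 39 cytosolic ribosomal protein genes 38 were higher, but none was far, and 21 were near, with a median of 0.69. Nuclear genes of oxidative phosphorylation were near for 32 of 36 (88.9%) and higher for 20, with a median of 0.35. Uqcrfs1 of complex III rose by 0.97 ± 0.10, and Sdha of complex II was at 208, 226 and 225 CPM in the WT libraries and 189.7 to 244 (median 218) CPM in the treated libraries, a change of -0.03 ± 0.09. Genes encoded in mitochondrial DNA were higher for 10 of 13 in the pooled comparison, such as mt-Co1 (0.82 ± 0.13), and mt-Nd2 was near at 0.08 ± 0.12. The median change of the 13 from WT was 1.10 with CPTH6 and 0.54 with ML324. Counts of these 13 genes are uncertain, since reads shared with nuclear copies were not counted. Of 24 fatty acid oxidation genes 18 were higher and 16 near. Fatty acid synthesis genes were higher for 9 (47.4%) and lower for 7 (36.8%) of 19, against 29.5% and 32.9% of all genes tested. Sterol synthesis genes were higher for 4 and lower for 4 of 24. Clock genes were higher for 12 of 19, with the repressor Bhlhe40 at 1.81 ± 0.21 and Clock near at -0.18 ± 0.10. Imprinted genes were lower for 14 of 17 tested (18 listed), with a median of -1.78. The noncoding RNAs Meg3 (-4.29 ± 0.32) and Rian (-4.55 ± 0.34), of the same imprinted cluster, were far below WT, and untreated PLD cells had means of 2.52 CPM for Meg3 and 1.33 CPM for Rian.

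Untreated PLD cells at 2 months placed these changes beside the disease state without treatment. Of 17642 genes tested with them, treated cells were higher for 1975 (11.2%) and lower for 2689 (15.2%). The treated libraries enter both comparisons, and time and library set differ here too. Above both WT and untreated PLD stood neutrophil genes, namely Ngp, Retnlg, Camp, S100a9 and S100a8, and the interleukin-1 family gene Il1f9, whose 3 WT values were 1.56, 2.79 and 1.91 CPM and whose treated values were 7.34 to 26.2 (median 16.1) CPM. Camp overlapped between treated and WT libraries, and limma-voom did not call Ngp (adjusted p = 0.279), Retnlg (0.186) or Camp (0.339) against WT. Below both stood Col1a1 and other stromal genes. Hand2, a transcription factor of stellate cells, was at 25.4, 42.9 and 43.2 CPM in the WT libraries and 1.37 to 4.80 (median 1.75) CPM in the treated libraries and averaged 45.9 CPM in untreated PLD cells, so treated cells lay below both, by -4.06 ± 0.30 and -4.37 ± 0.29. Thbs2, a matrix glycoprotein of fibroblasts, was at 176, 217 and 220.0 CPM in the WT libraries and 4.70 to 18.9 (median 9.20) CPM in the treated libraries and averaged 178 CPM in untreated PLD, with changes of -4.40 ± 0.36 and -4.20 ± 0.36. The macrophage factor Spic (-4.51 ± 0.48 from WT) and the interferon-induced gene Ifi213 (-4.36 ± 0.36) were also below both, as was Dpep1, a membrane dipeptidase (-4.39 ± 0.42). Between the 2 groups lay genes that were high in untreated PLD and closer to WT in treated cells. Fbn2, a fibrillin, was at 11.1, 11.1 and 9.44 CPM in the WT libraries and 9.91 to 43.2 (median 18.3) CPM in the treated libraries and averaged 152 CPM in untreated PLD, so treated cells were above WT by 0.84 ± 0.32 and below untreated PLD by -3.01 ± 0.30. Treated and WT libraries overlapped for Fbn2, and its call against WT was lost without any 1 of WT replicates 1 to 3, CPTH6 replicate 1 or ML324 replicate 2, with changes of 0.55 to 0.88 (edgeR adjusted p = 0.0554 to 0.137). Oas3, an interferon-induced sensor of viral RNA, was at 7.26, 5.18 and 1.86 CPM in the WT libraries and 7.29 to 30.3 (median 14.0) CPM in the treated libraries against a mean of 78.9 CPM in untreated PLD, with changes of 1.58 ± 0.43 and -2.46 ± 0.65. Chil4, a chitinase-like gene, Prss35, a secreted protease-like gene, the imprinted gene Nnat and the apolipoprotein L gene Apol7a completed the 6, at 2.89 ± 0.72, 1.40 ± 0.21, 1.17 ± 0.30 and 3.98 ± 0.44 above WT, and Nnat also overlapped with WT. Against WT at 1 month Chil4 (0.85, edgeR adjusted p = 0.456) and Prss35 (0.32, edgeR adjusted p = 0.197) lost their calls. Close relatives, such as Chil3 and Chil4 or Gsta1 and Gsta3, are uncertain where reads fit both, since such reads were not counted.

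**Figure D4:**
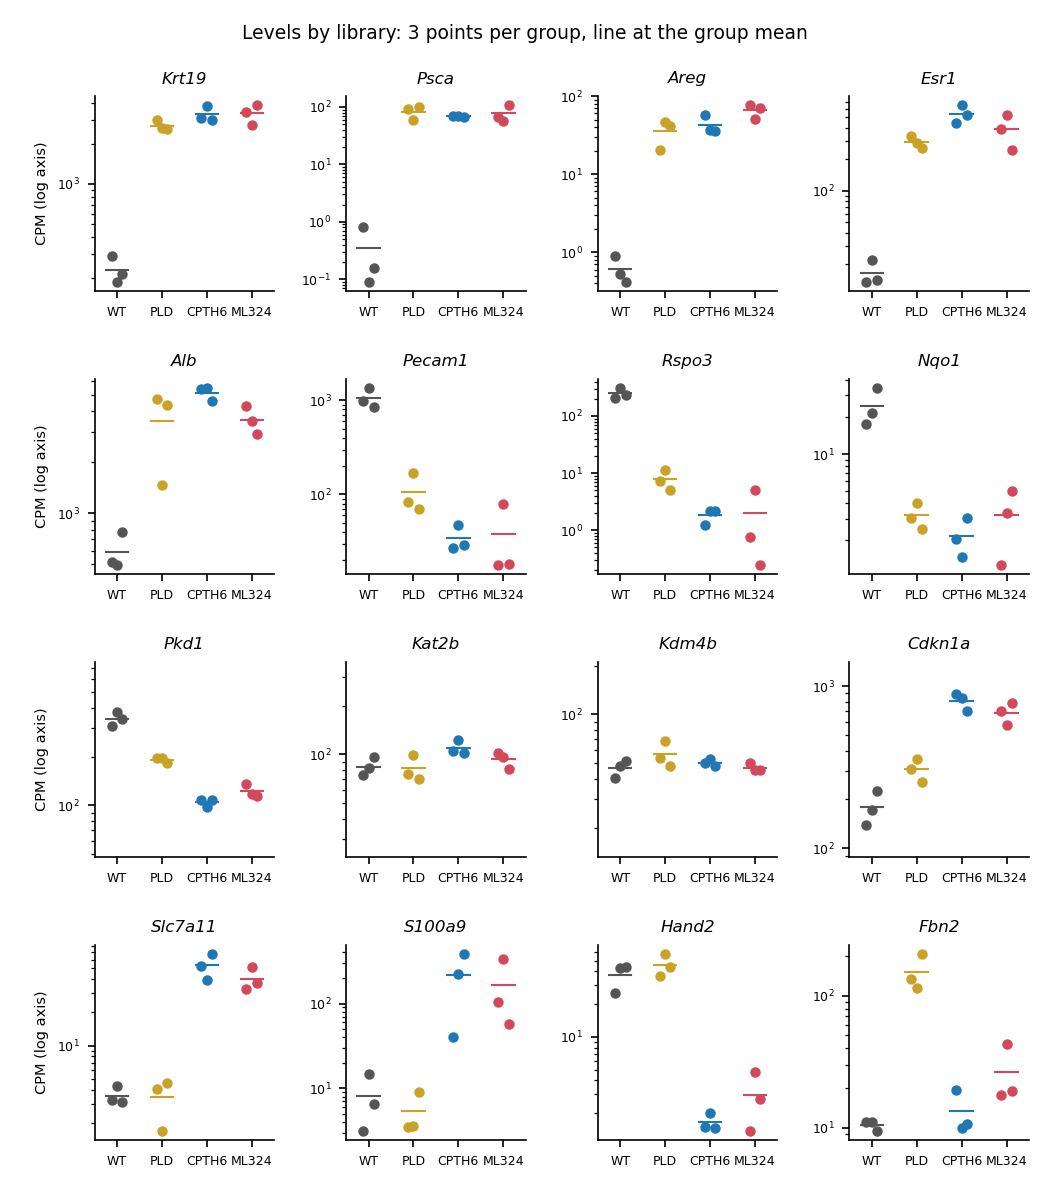
CPM on a log axis (y) for 16 genes, with 3 points per group for WT at 2 months, untreated PLD at 2 months, CPTH6 and ML324 (x) and a line at each group mean. Psca, Areg and Krt19 are high in all 3 PLD groups and low in WT, Slc7a11 and S100a9 lie higher and Hand2 lower in both treated groups than in WT and untreated PLD, and the groups overlap for Kat2b and Kdm4b.

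The 2 compounds, whose treatments were pooled, were compared directly. With CPTH6, 10441 genes (59.4%) differed from WT, 4896 higher and 5545 lower, and with ML324 9962 (56.6%) did, 4736 higher and 5226 lower, against the same 3 WT libraries. Between CPTH6 and ML324, 0 genes (0%) passed the threshold in edgeR's quasi-likelihood test, with a smallest adjusted p of 0.239. At an unadjusted p under 0.05 there were 1997 genes (11.4%), DESeq2 called 166 and limma-voom 0. The 95% interval of the difference lay inside 2-fold for 11091 genes (63.1%). For Krt20 the changes from WT were 8.06 ± 0.70 with CPTH6 and 8.71 ± 0.71 with ML324, for Rspo3 -7.06 ± 0.71 and -6.95 ± 0.72, for Slc7a11 3.90 ± 0.26 and 3.50 ± 0.26, for Pkd1 -1.71 ± 0.12 and -1.49 ± 0.12, and for Mki67 1.77 ± 0.36 and 0.90 ± 0.36. The difference between compounds for Mki67 was 0.87, with an interval of 0.09 to 1.64, and for Pkd1 it was -0.22, with an interval of -0.48 to 0.04. The dose and duration of each treatment are not given in the labels, so matched doses cannot be assumed, and these intervals are not adjusted for the number of genes.

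Which genes count as near or far depended on the scale. CPM values express each gene as a share of all RNA, and the libraries differed in the share of RNA from duct and other cells. When libraries were scaled so that the cholangiocyte markers had the same mean level, the median log2 fold change over all genes became -2.72, and 188 genes (1.07%) were higher and 16470 (93.6%) lower. That scale assumes that the 22 markers do not change per duct cell. On it, Krt20 (5.75), Psca (5.02), Msln (3.74), Anxa8 (3.97), Areg (3.76), Esr1 (2.05) and Apob (2.65) stayed above WT, while genes with smaller increases, such as Pkd2 (-1.89), Cdkn1a (-0.62) and Mki67 (-1.47), turned negative and the genes far below WT lay further below. Others lost their call on that scale, namely Sox9 (0.35), Il1f9 (0.30), Alb (0.20), Dsp (0.19), Ano1 (0.04), Atp1b1 (0.00), Gclc (0.00), Chil4 (0.41) and Camp (2.75). Epcam (-0.01), Kcnq1 (-0.19), Lama3 (-0.35) and Gsta3 (-0.49) turned negative and also lost their call. Epcam and Sox9 are among the 22 markers that set this scale, so their small values on it follow from the scaling and are no test.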

How the data were processed

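RNA of 18 libraries was measured by RNA-seq, and 9 are compared here, 3 per group, with 3 untreated PLD libraries at 2 months and 3 WT libraries at 1 month set beside them. Each deposited file gives raw read counts per gene, not normalized, made by the authors with featureCounts 1.6.0 on GENCODE M25 and mm10, per the file headers. The submitters' processing notes also name STAR 2.7.4a and SAMtools 1.12. The command in the header sets paired-end counting and no strand or multi-mapping option, so sense and antisense reads cannot be told apart and reads that fit several places were left out. Groups were read from the titles.

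Counts were analysed in R 4.3.3 with edgeR 4.0.16. Genes were kept by filterByExpr (minimum count 10), libraries were scaled by TMM, and 1 mean per group was fitted with glmQLFit. The mean of the CPTH6 and ML324 groups was contrasted with WT at 2 months by glmQLFTest, on 6 residual degrees of freedom. Adjusted p-values are Benjamini-Hochberg values over all genes tested, with a threshold of 0.05. Far was tested with glmTreat at 2-fold, and near used the 95% interval. Comparisons with untreated PLD used 12 libraries and 8 residual degrees of freedom. CPM values were scaled by TMM over those 12 libraries, and marker levels used log2 CPM with a prior count of 2. Fold changes are log2 with ± SE.

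Named genes were the 12 largest changes in each direction without overlap at 10 CPM or more, the 8 near genes with the narrowest interval at 50 CPM or more, up to 4 called and 2 near members per list by smallest p or narrowest interval, 6 genes each above both, below both or between WT and untreated PLD, and a short set always given. Some genes that met this rule are not reported here. Others are said to be chosen after their values were seen. The members and lists were chosen with earlier results of these data known.

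The alternatives were RLE size factors, scaling to the cholangiocyte markers, other count filters, DESeq2 1.42.0, limma-voom (limma 3.58.1), other designs, WT at 1 month as control, other bounds for near, and leaving out each library. The fit was tested on counts simulated for this comparison for 17194 genes. It called 60% of 100 genes changed 2-fold and 84% of 100 changed 4-fold, and 5 of 16994 unchanged genes. The changed genes were few and split evenly between higher and lower, and no shift in cell types was simulated. In the data 62.4% of the genes tested were called, so these rates need not hold there.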

Additional observations from a re-analysis of the deposited data

Results flagged for a closer look

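A treated library was marked when its gap to the nearest of the other 5, divided by the range of all 6, exceeded Dixon's 95% value of 0.625. Chance marks about 1 in 20 groups of normally distributed values from 1 population. For genes the ratio was taken on CPM without logs over both compounds, so that rate need not hold here. Marked were 20 of 173 genes and 1 of 12 marker lists examined. Each sentence gives that ratio after the gene. ML324 replicate 3 was the lowest treated library for Adgre1 (0.627, 6.86 against 11.6 to 14.4 CPM). ML324 replicate 2 was the highest treated library for Adh6b (0.798, 0.6 against 0 to 0.121 CPM), Bmp10 (0.783, 0.84 against 0 to 0.182 CPM), Col1a1 (0.708, 106 against 44.8 to 62.6 CPM), Dpep1 (0.869, 11.9 against 2.25 to 3.5 CPM), Fbn2 (0.713, 43.2 against 9.91 to 19.5 CPM), Pdgfrb (0.763, 26.4 against 8.02 to 12.4 CPM), Stab1 (0.631, 104 against 26.8 to 55.2 CPM), Wnt9b (0.727, 5.7 against 0.546 to 1.95 CPM) and stellate cell and fibroblast markers (0.662, 5.13 against 3.12 to 3.8). ML324 replicate 2 was the lowest treated library for Apob (0.658, 572 against 804 to 925 CPM) and Cxcl16 (0.644, 343 against 393 to 421 CPM). CPTH6 replicate 1 was the highest treated library for Gabrq (0.625, 0.324 against 0 to 0.121 CPM) and Slc10a2 (0.634, 74 against 52.6 to 60.5 CPM). ML324 replicate 3 was the highest treated library for Gclm (0.64, 181 against 120 to 142 CPM), Gsta1 (0.639, 46.2 against 11.4 to 23.9 CPM), Gsta4 (0.743, 801 against 363 to 475 CPM), Krt20 (0.737, 564 against 120 to 236 CPM) and Psca (0.722, 109 against 56.2 to 70.9 CPM). CPTH6 replicate 1 was the lowest treated library for Ifit2 (0.792, 8.66 against 13.4 to 14.7 CPM). CPTH6 replicate 2 was the highest treated library for Rbpj (0.674, 82.6 against 65.5 to 71.1 CPM). ML324 replicate 2, which stood apart most often, also had the highest endothelial, stellate and smooth muscle marker levels of the treated libraries. The part of those cells in its values was not tested.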

How the results depend on the processing

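Scaling to the cholangiocyte markers changed most results. It left 188 genes higher, 16470 lower, 98 far above, 15626 far below and 299 near. The medians of 28 lists turned negative: DNA replication -1.954, EGF ligands and ERBB receptors -1.716, MHC class I genes -2.322, NRF2 and glutathione genes -1.26, Wnt ligands and targets -2.271, autophagy machinery -2.624, biliary transcription factors -0.966, cholangiocyte markers -0.244, circadian clock genes -1.384, cyst surface and gastric or intestinal-type genes -0.456, cytosolic ribosomal proteins -1.989, epithelial junctions and polarity -0.891, fatty acid oxidation -2.156, fatty acid synthesis -2.418, heat shock proteins -2.368, hepatocyte markers -2.548, histone acetyltransferases -2.552, histone demethylases -2.334, hypoxia-inducible factors and targets -2.485, inflammatory cytokines and NF-kB -2.619, ion, water and bile acid transport -1.323, mitochondrial DNA-encoded genes -1.899, mitosis and cell cycle progression -1.95, oxidative phosphorylation, nuclear genes -2.33, p53 targets -2.23, polycystic disease genes -2.575, primary cilium -2.428, unfolded protein and integrated stress response -2.501. The log2 fold changes of 58 named genes also changed sign: Abcc2 -1.12, Atf4 -1.24, Atf6 -2.51, Bhlhe40 -0.89, Btc -1.03, Cdkn1a -0.62, Cep290 -1.8, Cpsf1 -2.6, Cxcl16 -1.36, Eif2ak3 -0.82, Emg1 -2.42, Epcam -0.01, Fbn2 -1.83, Fip1l1 -2.56, G6pdx -2.35, Ganab -2.63, Gclm -1.26, Gsta3 -0.49, Hat1 -1.4, Hhex -2.21, Hif1a -2.41, Ift52 -2.6, Igf1r -2.39, Irf9 -2.04, Itga6 -1.11, Jmjd1c -1.46, Kat2b -2.42, Kat5 -1.73, Kcnq1 -0.19, Kdm4b -2.64, Kdm7a -1.43, Lama3 -0.35, Lyz2 -2.64, Mki67 -1.47, Nfe2l2 -2.23, Nnat -1.47, Oas3 -1.17, Pcna -1.57, Pkd2 -1.89, Pkhd1 -1.34, Prkar2a -2.65, Prkci -1.98, Prkcsh -2.05, Prss35 -1.28, Rfc5 -0.61, Scrib -2.24, Slc4a2 -2.48, Smad4 -2.4, Sqstm1 -0.55, Srxn1 -0.77, Tgfa -0.77, Tsen34 -2.6, Txnrd1 -0.9, Uqcrfs1 -1.71, Usp8 -2.61, Wnt4 -2.59, mt-Co1 -1.9, mt-Nd2 -2.65. Each change follows from the construction of that scale, which moved the median of all genes to -2.715. The cholangiocyte markers, with Epcam and Sox9 among them, set the scale, so their own values on it are no test. Adjusted p is in brackets here and below. Among named genes that kept their sign, calls lost on that scale were those of Alb 0.2 (0.361), Ano1 0.04 (0.841), Atp1b1 0.0 (0.984), Camp 2.75 (0.0515), Chil4 0.41 (0.484), Dsp 0.19 (0.314), Gclc 0.0 (0.999), Il1f9 0.3 (0.522), Sox9 0.35 (0.233), and 13 not called on the CPM scale were called lower. Of those that changed sign, Epcam (0.97), Gsta3 (0.0686), Kcnq1 (0.365) and Lama3 (0.144) lost their calls. Others that changed sign, such as Kat2b (1.24e-08) and Lyz2 (2.47e-08), were newly called lower.

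With WT at 1 month as control, 778 genes were far above WT. List medians that changed sign were mitosis and cell cycle progression -0.124, primary cilium -0.081, sterol synthesis 0.068, and genes were Abcc2 -0.09, Bax 0.07, Clock 0.01, Dll1 0.33, Fbn2 -0.18, Fip1l1 -0.01, Hhex -0.07, Hif1a -0.33, Lyz2 -0.7, Mki67 -0.12, Rptor 0.02, Usp8 -0.1, Wnt4 -0.1, mt-Nd2 -0.1. Among genes that kept their sign, calls lost were those of Btc 0.65 (0.181), Camp 2.33 (0.173), Chil4 0.85 (0.456), Gsta3 1.39 (0.0612), Irf9 0.41 (0.166), Kat2a -0.29 (0.0803), Nfe2l2 0.23 (0.0807), Ngp 2.82 (0.105), Pkhd1 0.4 (0.527), Prss35 0.32 (0.197), Sec63 -0.2 (0.197), Smad4 0.25 (0.0623), and calls gained were C3 -0.42 (0.0454), Cd68 -0.63 (0.0329), Cpsf1 0.32 (0.0121), Ganab 0.29 (0.0318), Ift81 -0.52 (0.0145), Rbpj -0.47 (0.00679). Of those that changed sign, Abcc2 (0.913), Bax (0.6), Fbn2 (0.833), Hhex (0.912), Hif1a (0.211) and Mki67 (0.757) also lost their calls. Lyz2 (0.0238), not called against WT at 2 months, was called lower. Without the low-count filter 9126 genes were lower, 5221 far below and 583 differed between CPTH6 and ML324, with sparse genes added, and DESeq2 called 166 genes between the compounds. A 1.5-fold bound left 3521 genes near. Small values also changed sign without the filter (hepatocyte markers -1.161, mesothelial markers 0.07, Ift81 0.01, Tead1 0.02), in the fit of 18 libraries (hepatocyte markers -0.754, mesothelial markers 0.011, Lyz2 -0.02), with a minimum count of 30 (Lyz2 -0.02) and with the treated libraries as 1 group (Tead1 0.0). Other lost calls were Camp 4.14 (0.339), Fbn2 0.73 (0.0743), Ngp 6.65 (0.279), Retnlg 5.3 (0.186) in limma-voom; Fbn2 0.82 (0.199), Hhex 0.41 (0.358), Hif1a 0.26 (0.193), Oas3 1.56 (0.0638) in the fit of 18 libraries; Emg1 0.3 (0.0932), Hif1a 0.31 (0.0761), Smad4 0.31 (0.0762) without the filter; Fbn2 0.82 (0.0506) with a minimum count of 30; Fbn2 0.92 (0.0729) with 1 treated group. Other gained calls were C3 -0.25 (0.0153) in DESeq2; C3 -0.25 (0.0498) in limma-voom; Rptor -0.19 (0.0149) in the fit of 18 libraries; Cd68 -0.38 (0.0214) without the filter; C3 -0.27 (0.0344), Rptor -0.19 (0.03) with a minimum count of 30. Apart from the scale and the filter, the cause was not tested.

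Leaving out each library in turn gave 4552 to 5099 genes higher, 5360 to 6206 lower, 1201 to 1434 far above, 2760 to 3351 far below, 6639 to 7174 near, 0 to 3 between the compounds and 3055 to 4316 between treated and untreated PLD. The 3 came without ML324 replicate 3 and the 3055 without untreated PLD replicate 3. The range crossed 0 for Dll1 -0.16 to 0.03, Ganab -0.02 to 0.25, Ift81 -0.07 to 0.01, Kdm4b -0.07 to 0.1, Lyz2 -0.19 to 0.32, Prkar2a 0 to 0.08, Smo -0.15 to 0.04, Tead1 -0.1 to 0.11, hepatocyte markers -0.822 to 0.624, mesothelial markers -0.472 to 0.248, mt-Nd2 -0.04 to 0.21, sterol synthesis -0.365 to 0.034. Calls lost without 1 library were those of Fbn2, Smad4, G6pdx, Hhex, Hif1a and Sec63, with adjusted p-values of 0.0504 to 0.239. Sec63 lost its call without WT replicate 2, Hhex without WT replicate 2 or ML324 replicate 2, Hif1a without WT replicate 1 or 3 or ML324 replicate 2, G6pdx without any WT library or CPTH6 replicate 2 or 3, Smad4 without WT replicate 1 or 2, CPTH6 replicate 1 or 2 or any ML324 library, and Fbn2 without any WT library, CPTH6 replicate 1 or ML324 replicate 2. Calls gained were those of C3 without WT replicate 3 (0.0439), Cd68 without WT replicate 2 (0.00749), Cyp2e1 without ML324 replicate 2 (0.0493), Igf1r without WT replicate 3 (0.0239), Kat2b without WT replicate 3 (0.0386), Kat2b without ML324 replicate 3 (0.0382).

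The correlation of deviations between same-numbered replicates was -0.101 to 0.282 and over 0.1 for 2 of 9 pairs. Its median was 0.073, against -0.025 for other numbers. With 3 libraries per group this cannot decide whether replicates were paired. With the replicate number as a block, 5084 genes were higher, 5683 lower, 1462 far above, 2916 far below and 7225 near, 0 differed between the compounds, and Fbn2 alone of the named genes lost its call (0.82, adjusted p = 0.0516). Depth limits nearness for genes under 1 CPM, and the wide spread of neutrophil genes limits their fold changes.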
